A study of Mus musculus with 6 samples.

Results

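Non-neural genes were followed in RNA from the ganglionic eminences of mouse embryos, the swellings of the ventral forebrain that produce striatal neurons and cortical interneurons. The list named 36 marker genes of blood vessel endothelium, pericytes, microglia, meninges and red blood cells, picked by symbol so that they could measure how much tissue other than neural tissue each library held. Of these, 34 matched a gene among the 55416 of the table of counts. The 2 entries written Kcnj8-like and Notum-like matched none. The 34 comprised 12 endothelial, 3 pericyte, 9 microglial, 5 meningeal and 5 erythroid genes. There were 6 libraries of total RNA depleted of ribosomal RNA, all from E13.5 embryos: 3 from embryos lacking both Dlx1 and Dlx2, homeobox genes of the ventral forebrain, and 3 from wild-type littermates. The labels describe neither the knockout alleles nor the sex, and do not say whether a library is 1 embryo, so the tests below measure the spread between these libraries.

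Vessels enter the embryonic brain from a plexus in the surrounding meninges and grow under the control of VEGF, angiopoietin and Wnt ligands, several of which are made by neural progenitors. Pericytes are recruited to the new capillaries by PDGF-B from the endothelium. Microglia arise from yolk sac progenitors and depend on the receptor Csf1r. Fetal red cells circulate in the vessels and replace embryonic globins by adult globins as development goes on.

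Total counts were 56618090 to 70114173 per library, and levels are given as CPM, read counts brought to a common library size by TMM scaling (edgeR's trimmed mean of M values). Dlx1 was at 438.9 ± 6.12 CPM (SD, n = 3) among wild-type libraries and 81.6 ± 10.8 CPM among double knockouts. Dlx2 was at 295.7 ± 16.1 and 8.68 ± 1.99 CPM, and every library matched its label. Tubb3, a tubulin gene of neurons, was at 1129.8 to 1234 CPM (wild type) and 860.0 to 985 CPM (double knockout). Tbr1 and Neurod6, markers of cortical excitatory neurons, were also present, at 308 to 313 CPM (wild type) and 227 to 279 CPM (double knockout) for Tbr1. Wild-type replicate 1 stood apart from the other libraries in some markers of the choroid plexus, the secretory epithelium of the ventricles. Ttr, its transthyretin gene, had 1540 reads there and at most 10 in any of the other 5 libraries. The 10 choroid plexus genes summed to 35.6 CPM in wild-type replicate 1 and to 2.58 to 5.12 CPM in the other 5, and 5 of the 10 were highest in that library. Ttr alone was at 26.3 CPM there, and without it the sums were 9.30 CPM and 2.52 to 4.98 CPM. Kcnj13, another of the 10, was lowest in wild-type replicate 1, with 8 reads against 20 to 38 in the other 5. An opposite-strand gene overlaps 623 bases of the Kcnj13 exons, so its counts are uncertain. Y-linked genes summed to 206.5 to 213.9 CPM in wild-type replicate 1 and double knockout replicates 2 and 3 and to at most 0.168 CPM in the other 3, so the sexes were not balanced between the genotypes.

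None of the 34 marker genes passed the test between the genotypes. All 34 passed the filter on low counts, and 0 were called at 0.05 by edgeR (quasi-likelihood F test, p adjusted after Benjamini and Hochberg), against 2.68% of all 23628 tested genes, 1.34% in each direction. At an unadjusted p under 0.05 there was 1 gene, Fcer1g, or 2.94% of the members, against 13.3% of all tested genes, 6.52% in its direction, higher in the double knockout. DESeq2 and limma-voom on the same genes also called 0, with 2 and 1 at an unadjusted p under 0.05. The double knockout and wild-type libraries did not overlap for 1 member, Hba-a1, which was lower in the double knockout, against 19.5% of all tested genes, 10.2% in that direction and 9.3% in the other. The median log2 fold change of the 34 was 0.06, and -0.00161 over all tested genes. Fewer cells of a type and less RNA per cell cannot be told apart in such bulk tissue.

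**Figure D1:**
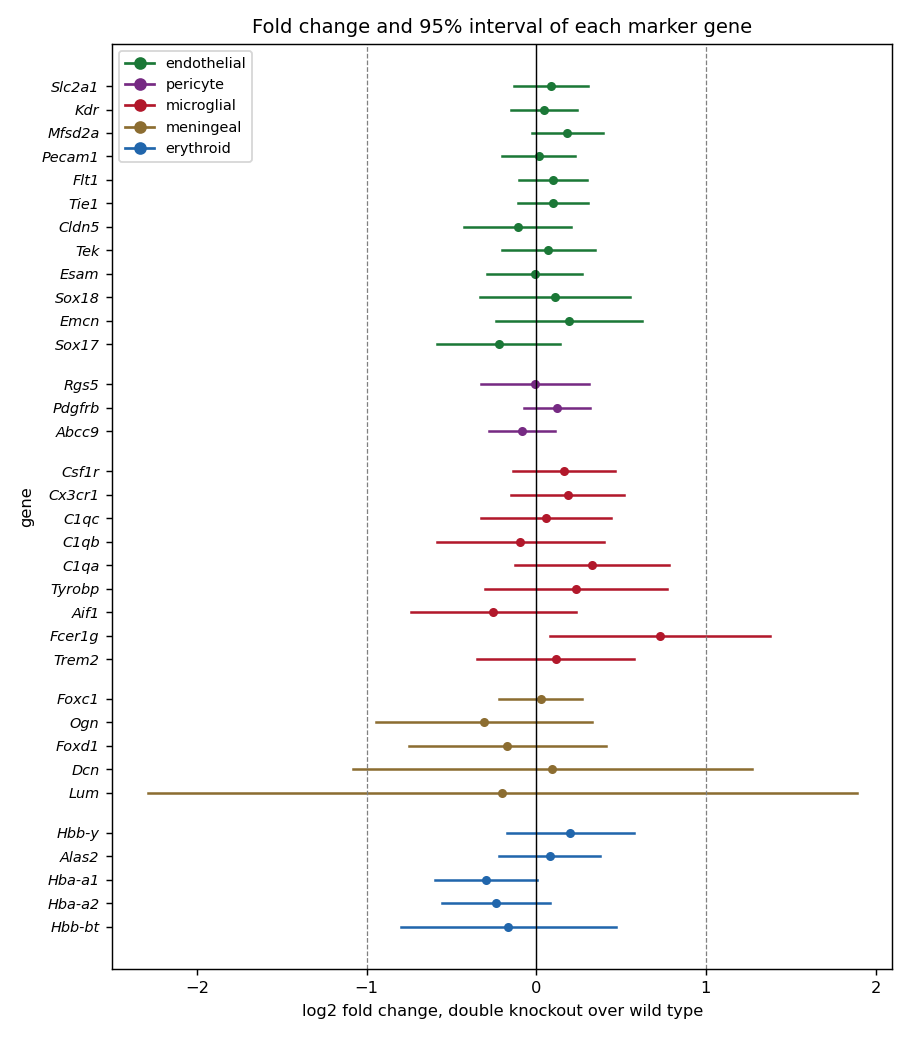
Each point is the log2 fold change of a marker gene, double knockout over wild type (3 libraries each), and the line its 95% interval in edgeR's quasi-likelihood fit; dashed lines mark a 2-fold difference. The intervals of 31 of the 34 genes lie within the dashed lines, and those of Fcer1g, Dcn and Lum do not.

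The 95% interval of the fold change, which is not corrected for the number of genes, lay within 2-fold in both directions for 31 of the 34 members. For the 25 members with at least 100 reads in every library, the intervals together ran from 0.663-fold to 1.72-fold. The other 9 members had fewer reads in at least 1 library, and Lum and Dcn fell below 10 reads in some. Lum and Dcn had the widest intervals, from 0.204-fold to 3.71-fold for Lum and from 0.473-fold to 2.41-fold for Dcn. A 2-fold difference in either direction was thus not excluded for them.

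**Figure D2:**
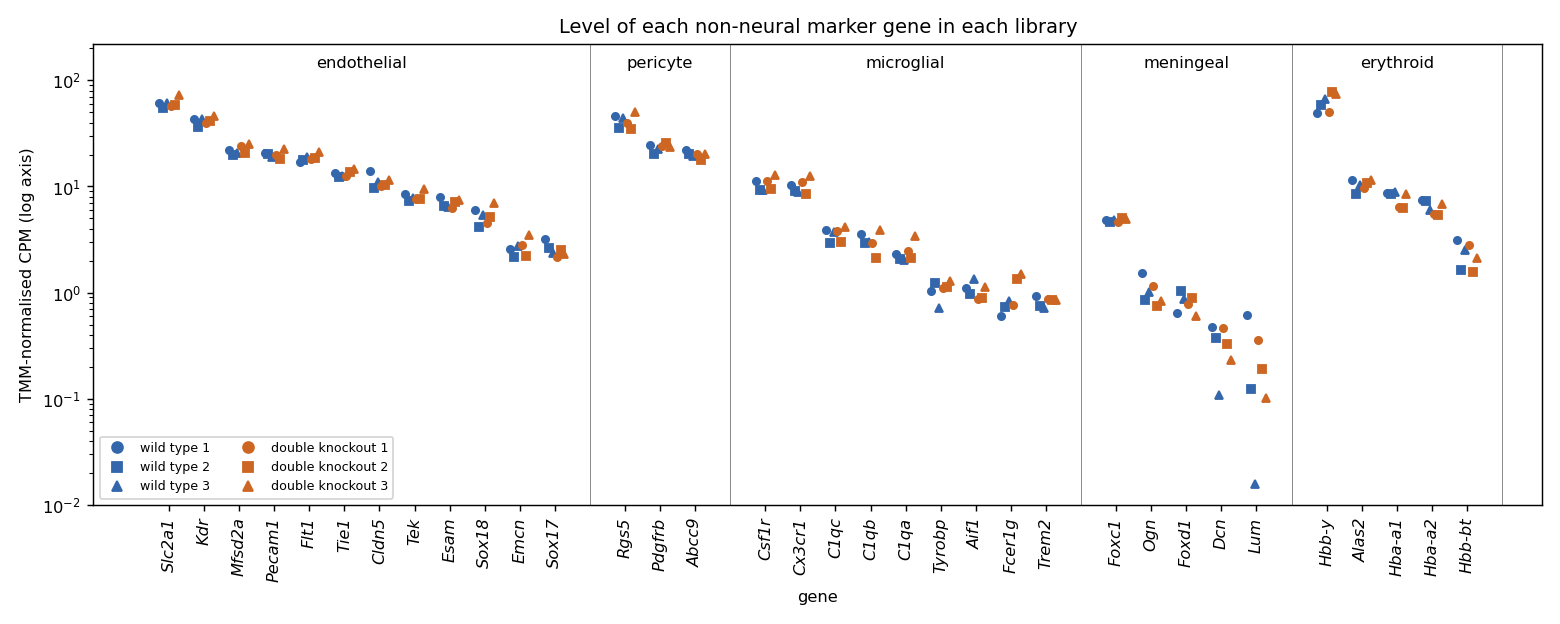
TMM-normalised CPM (log axis) of each marker gene in each library, grouped by cell class and ordered by mean level within a class; blue marks are wild-type and orange marks double knockout libraries, and the shape gives the replicate. The 6 marks of a gene mostly lie close together, from Slc2a1 at 55.2 to 72.7 CPM down to Lum at 0.0156 to 0.614 CPM, and the spread widens for Dcn and Lum.

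Endothelial genes were the most highly counted class, with 11863 to 16894 reads per library. Kdr and Flt1 encode the main VEGF receptors of endothelium. Kdr was at 43.6, 36.6 and 43.2 CPM across wild-type replicates 1 to 3, against 39.6, 41.6 and 45.9 CPM across double knockout replicates 1 to 3, and the groups overlapped. Its log2 fold change was 0.04 (95% interval -0.15 to 0.24), with an edgeR adjusted p of 0.900. Flt1 was at 17.0 to 18.9 CPM (wild type) and 18.1 to 21.1 CPM (double knockout), again with overlap. Tek, the angiopoietin receptor, and its relative Tie1 had log2 fold changes of 0.07 (95% interval -0.20 to 0.35) and 0.10 (95% interval -0.10 to 0.30).

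Slc2a1 encodes the glucose transporter of the blood-brain barrier, and other cell types also express it. It had the highest level per transcript length of the endothelial members, 17.3 CPM per kb of exon, followed by the lipid transporter gene Mfsd2a at 9.83 and the tight junction gene Cldn5 at 7.88 CPM per kb. Slc2a1 was at 61.1, 55.2 and 60.6 CPM across wild-type replicates 1 to 3, against 56.9, 58.2 and 72.7 CPM across double knockout replicates 1 to 3. Double knockout replicate 3 was the highest of the 6, and the other 2 double knockout libraries lay within the wild-type range. The log2 fold change was 0.09 (95% interval -0.13 to 0.30), with an edgeR adjusted p of 0.799. Mfsd2a, at 19.6 to 22.0 CPM (wild type) and 20.8 to 25.4 CPM (double knockout), had the smallest adjusted p of the class, 0.448 in edgeR, and a log2 fold change of 0.18 (95% interval -0.02 to 0.39). Cldn5 was at 14.1, 9.72 and 11.0 CPM (wild type) and 10.2, 10.4 and 11.6 CPM (double knockout), highest in wild-type replicate 1, with a log2 fold change of -0.11 (95% interval -0.43 to 0.21).

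The adhesion genes Pecam1 and Esam and the sialomucin gene Emcn had log2 fold changes of 0.01, -0.01 and 0.19. Sox17 and Sox18 encode transcription factors of endothelial and arterial fate. Sox17 had the largest difference of the class, at 3.19, 2.61 and 2.37 CPM (wild type) and 2.19, 2.53 and 2.29 CPM (double knockout), with overlap through double knockout replicate 2 and wild-type replicate 3. Its log2 fold change was -0.22 (95% interval -0.58 to 0.14), with an edgeR adjusted p of 0.649. Sox18 differed in the other direction, by 0.11 (95% interval -0.33 to 0.55). The 12 endothelial log2 fold changes ran from -0.22 to 0.19, 9 of them above 0, with a median of 0.08. Summed over the 12 genes, the level was 208.2 ± 13.3 CPM (SD, n = 3) among wild-type libraries and 218.1 ± 22.0 CPM among double knockouts, with overlap.

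The 3 pericyte genes showed the smallest range of fold changes. Pdgfrb, the receptor through which PDGF-B recruits pericytes, was at 24.7, 20.4 and 22.4 CPM across wild-type replicates 1 to 3, against 24.1, 25.7 and 23.7 CPM across double knockout replicates 1 to 3. The groups overlapped, and its log2 fold change was 0.12 (95% interval -0.07 to 0.32), with an edgeR adjusted p of 0.634. Rgs5, a regulator of G protein signalling typical of brain pericytes, was at 46.1, 35.3 and 43.9 CPM (wild type) and 39.9, 35.0 and 49.9 CPM (double knockout). Its replicates varied more than those of Pdgfrb, and its log2 fold change was -0.01 (95% interval -0.32 to 0.31). Abcc9, a subunit of the pericyte potassium channel, was at 19.3 to 22.0 CPM (wild type) and 17.8 to 20.2 CPM (double knockout), with a log2 fold change of -0.09 (95% interval -0.28 to 0.11). The 3 genes summed to 84.9 ± 8.38 CPM (wild type) and 85.5 ± 7.70 CPM (double knockout). Kcnj8, the channel's pore subunit and the gene closest in name to an unmatched entry, was at 3.16 to 3.48 CPM (wild type) and 3.45 to 4.25 CPM (double knockout). Notum, a secreted Wnt inhibitor made by brain endothelium, had 1 to 11 reads per library and was not tested.

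Microglial genes were counted at lower levels, with 1694 to 2879 reads per library over 9 genes. Csf1r, the receptor for the microglial growth factors Csf1 and Il34, was at 11.3, 9.35 and 9.35 CPM across wild-type replicates 1 to 3, against 11.2, 9.52 and 12.9 CPM across double knockout replicates 1 to 3. Its log2 fold change was 0.16 (95% interval -0.14 to 0.47), with an edgeR adjusted p of 0.697. Cx3cr1, the fractalkine receptor, was at 10.4, 9.02 and 8.79 CPM (wild type) and 11.1, 8.45 and 12.4 CPM (double knockout), with a log2 fold change of 0.18 (95% interval -0.15 to 0.52). Both genes were highest in double knockout replicate 3, and double knockout replicate 2 lay at or near the low end of the 6 libraries.

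Fcer1g, an adaptor of Fc and other immune receptors, had the largest fold change of all 34 members. It was at 0.597, 0.731 and 0.842 CPM across wild-type replicates 1 to 3, against 0.770, 1.35 and 1.48 CPM across double knockout replicates 1 to 3, with 35 to 103 reads per library. Double knockout replicates 2 and 3 were above all wild-type libraries, while replicate 1 lay among them. The log2 fold change was 0.73 (95% interval 0.08 to 1.38), and its edgeR adjusted p was 0.306. Tyrobp, the related adaptor that signals for Trem2, was at 0.717 to 1.24 CPM (wild type) and 1.11 to 1.30 CPM (double knockout), with a log2 fold change of 0.24 (95% interval -0.30 to 0.77). Trem2 itself, a lipid receptor of microglia, had a log2 fold change of 0.11 (95% interval -0.35 to 0.58).

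C1qa, C1qb and C1qc encode the chains of the complement protein C1q. Their log2 fold changes were 0.33, -0.09 and 0.06. C1qa was at 2.30, 2.05 and 2.03 CPM (wild type) and 2.45, 2.10 and 3.45 CPM (double knockout), where double knockout replicates 1 and 3 were above all wild-type libraries and replicate 2 lay among them. C1qb was lowest in double knockout replicate 2, at 2.10 CPM, and highest in double knockout replicate 3, at 3.85 CPM. Aif1, which encodes the microglial marker protein Iba1, had a log2 fold change of -0.25 (95% interval -0.74 to 0.23). Summed over the 9 genes, the microglial level was 31.9 ± 2.83 CPM (wild type) and 35.4 ± 6.06 CPM (double knockout).

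The meningeal genes were the scarcest class, with 417 to 476 reads per library, of which Foxc1 made up most. Foxc1 encodes a transcription factor of meningeal and perivascular cells. It was at 4.83, 4.61 and 4.85 CPM across wild-type replicates 1 to 3, against 4.58, 5.08 and 4.89 CPM across double knockout replicates 1 to 3, the tightest of all members, with a 1.11-fold span over the 6 libraries. Its log2 fold change was 0.03 (95% interval -0.22 to 0.27), with an edgeR adjusted p of 0.955. Foxd1, a transcription factor of the meningeal and perivascular mesenchyme that is also found in the diencephalon, was at 0.648 to 1.03 CPM (wild type) and 0.605 to 0.885 CPM (double knockout), with a log2 fold change of -0.17 (95% interval -0.75 to 0.41).

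Dcn, Lum and Ogn encode small leucine-rich proteoglycans of the connective tissue matrix, and Lum and Dcn spanned the widest fold range of all members over the 6 libraries. Ogn was at 1.54, 0.856 and 1.01 CPM (wild type) and 1.16, 0.746 and 0.836 CPM (double knockout), highest in wild-type replicate 1. Its log2 fold change, the largest of the class, was -0.31 (95% interval -0.95 to 0.33), with an edgeR adjusted p of 0.738. Lum had 36, 8 and 1 reads across wild-type replicates 1 to 3, against 23, 11 and 7 across double knockout replicates 1 to 3. Dcn had 28, 24 and 7 reads in the wild type and 30, 19 and 16 in the double knockout. In both genes the wild-type range of CPM enclosed all double knockout libraries.

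The libraries with the highest counts of Lum and Ogn thus included wild-type replicate 1, where Ttr and some other choroid plexus genes were also high. Of the 21 meningeal genes in the table, members and further genes together, 9 were highest in that library, and the share over all tested genes was not counted. The 9 include Gjb2 and Gjb6, which had at most 9 and 1 reads in any library and were not tested. The log2 fold change of Lum was -0.20 with all libraries and 1.59 without wild-type replicate 1, where its adjusted p in edgeR was 0.66. The summed meningeal level was 7.32 ± 0.687 CPM (wild type) and 7.08 ± 0.363 CPM (double knockout), a log2 ratio of -0.05, and 0.03 without that library.

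The erythroid genes were dominated by Hbb-y, the embryonic beta-like globin, which held more reads than the other 4 members together in every library. The adult alpha globin genes Hba-a1 and Hba-a2 are near-identical copies, and their sequences are shown because they set how far the reads can be told apart. The longest coding transcripts of GENCODE M21 are 699 bases for Hba-a1 and 554 bases for Hba-a2. Of the 50-base stretches of the Hba-a1 transcript, 67.54% also occur in that of Hba-a2. In the part that aligned, 537 of 538 bases were identical. The difference was C577T, with the base of Hba-a1 first, its position counted from 1 at the 5′ end of the Hba-a1 transcript, and the base of Hba-a2 last. It lies within the coding part, which runs from position 197 to 622. The capital marks it in these 30-base windows.
Hba-a1: catgcctctctggaCaaattccttgcctct
Hba-a2: catgcctctctggaTaaattccttgcctct

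Their promoters were likewise almost the same. Below are the 150 bases upstream of the annotated start of the 4 globin members, from RefSeq on GRCm38.p6, 5′ to 3′ on the strand of the gene. Capitals mark 3 motifs on either strand: CCAAT (the CCAAT box), CCACCC (the box bound by erythroid KLF factors) and TATAA (a core of the TATA box). The motif GATAA, the core bound by GATA factors, was also searched on both strands and had no match in these windows. Overlapping matches are joined in one run of capitals.
Hba-a1: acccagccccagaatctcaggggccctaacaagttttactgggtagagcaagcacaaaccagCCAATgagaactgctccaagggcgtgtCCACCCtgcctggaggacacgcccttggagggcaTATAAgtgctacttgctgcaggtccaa
Hba-a2: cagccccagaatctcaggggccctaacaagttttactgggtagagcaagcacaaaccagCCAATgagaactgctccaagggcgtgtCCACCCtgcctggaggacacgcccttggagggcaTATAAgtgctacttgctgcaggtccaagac
Hbb-y: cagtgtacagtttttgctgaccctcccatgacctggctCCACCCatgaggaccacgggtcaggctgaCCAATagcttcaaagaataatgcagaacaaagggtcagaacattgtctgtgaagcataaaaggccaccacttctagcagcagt
Hbb-bt: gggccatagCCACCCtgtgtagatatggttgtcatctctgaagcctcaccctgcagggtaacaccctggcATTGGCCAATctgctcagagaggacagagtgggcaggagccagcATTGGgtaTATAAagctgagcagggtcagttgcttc

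The windows are chr11:32283522-32283671, plus strand, for Hba-a1 and chr11:32296342-32296491, plus strand, for Hba-a2. They are chr7:103853208-103853357, minus strand, for Hbb-y and chr7:103813924-103814073, minus strand, for Hbb-bt. The Hba-a1 and Hba-a2 windows share an unbroken run of 147 bases, offset by 3 bases because the annotated starts differ. CCAAT and CCACCC occurred in all 4 windows, and TATAA in all but that of Hbb-y. Among 32851 RefSeq promoters, windows of the same length held CCAAT in 24.5%, CCACCC in 19.7%, TATAA in 14.2% and GATAA in 13.3%. RefSeq promoters were found for 24 of the 36 listed genes.

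Hba-a1 was at 8.69, 8.56 and 8.84 CPM across wild-type replicates 1 to 3, against 6.36, 6.33 and 8.55 CPM across double knockout replicates 1 to 3. All 3 double knockout libraries were below the wild-type libraries, but replicate 3 by a margin of less than 0.1 CPM. The log2 fold change was -0.29 (95% interval -0.59 to 0.00), with an edgeR adjusted p of 0.385. Hba-a2 was at 7.51, 7.36 and 6.03 CPM (wild type) and 5.47, 5.36 and 6.88 CPM (double knockout), with overlap and a log2 fold change of -0.24 (95% interval -0.56 to 0.08). Because of their near identity the split of reads between the copies is uncertain, and their levels per kb were alike at 9.71 and 9.65 CPM.

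Hbb-y was at 49.0, 58.9 and 67.3 CPM across wild-type replicates 1 to 3, against 50.6, 76.8 and 74.0 CPM across double knockout replicates 1 to 3. It was the most abundant member per length, at 99.2 CPM per kb, and the highest and lowest libraries differed 1.57-fold. The groups overlapped, with a log2 fold change of 0.20 (95% interval -0.17 to 0.57) and an edgeR adjusted p of 0.701. Its sign was opposite to that of the alpha globins, and neither passed the test. Hbb-bt, an adult beta globin, was at 3.12, 1.63 and 2.53 CPM (wild type) and 2.79, 1.56 and 2.12 CPM (double knockout), with a log2 fold change of -0.17 (95% interval -0.80 to 0.47). Its transcript was 92.65% identical to that of the neighbouring adult gene Hbb-bs, so its counts are also uncertain. Alas2, the erythroid enzyme that starts heme synthesis, was at 11.6, 8.48 and 10.4 CPM (wild type) and 9.63, 10.9 and 11.6 CPM (double knockout), with a log2 fold change of 0.08 (95% interval -0.22 to 0.37).

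Embryonic beta-like globins, Hbb-y and Hbb-bh1, supplied most beta globin reads in every library. Their share was 70.8% (95% Wilson interval 69.4 to 72.1), 88.7% (87.7 to 89.6) and 82.2% (81.1 to 83.2) in wild-type replicates 1 to 3. In double knockout replicates 1 to 3 it was 82.7% (81.5 to 83.9), 87.2% (86.3 to 88.1) and 83.2% (82.3 to 84.1). These intervals cover counting error only. Wild-type replicate 1 had the lowest share, and the other wild-type and the double knockout libraries overlapped. The 5 erythroid members summed to 86.6 ± 7.71 CPM (wild type) and 93.0 ± 15.8 CPM (double knockout), a log2 ratio of 0.10. Without Hbb-y the ratio was -0.13, so the direction of the erythroid sum rested on that gene.

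**Figure D3:**
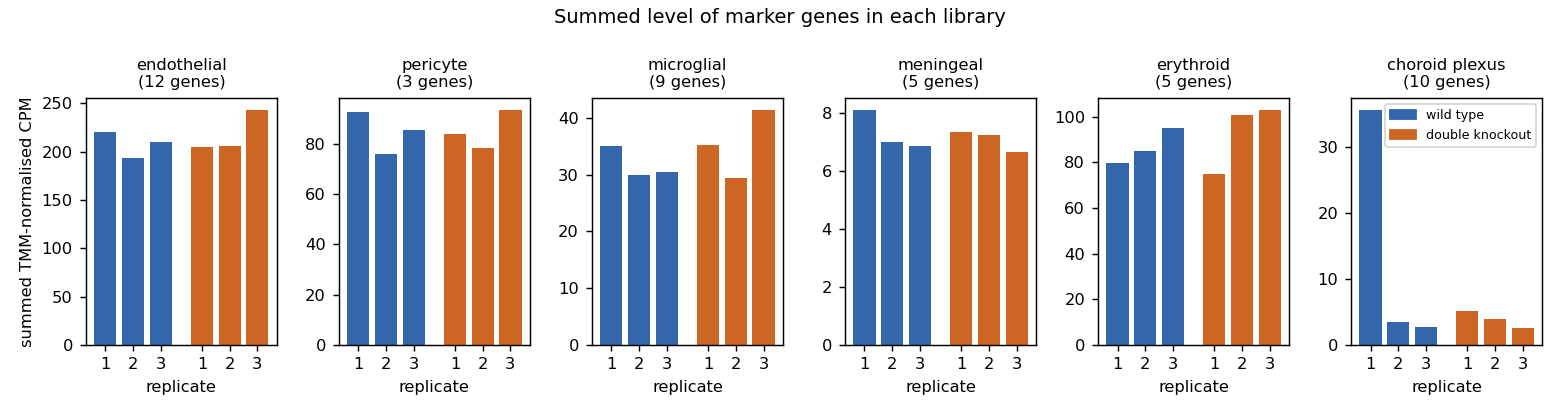
Summed TMM-normalised CPM of the member genes of each class in each library, with the 10 choroid plexus genes at the right; bars are single libraries, blue wild type and orange double knockout, and each panel has its own axis from 0. In the 5 classes the genotypes overlap, while the choroid plexus sum reaches 35.6 CPM in wild-type replicate 1 only.

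Summed over its members, each class spanned 1.22-fold to 1.41-fold across the 6 libraries, and in each the genotypes overlapped. All 34 members together summed to 418.9 ± 23.6 CPM (wild type) and 439.0 ± 43.6 CPM (double knockout). Double knockout replicate 3 was the highest library for 9 of the 12 endothelial and 7 of the 9 microglial members. Wild-type replicate 2 was the lowest for 8 of the 12 endothelial members. Of the meningeal genes, 3 of 5 were highest in wild-type replicate 1 and 0 in double knockout replicate 3. How many of all tested genes were highest or lowest in each library was not counted. These counts are therefore descriptions and cannot be told apart from a shift of the whole library. Without wild-type replicate 1, the log2 ratios of the endothelial, pericyte, microglial and erythroid sums were 0.11, 0.08, 0.22 and 0.05. Without double knockout replicate 3 they were -0.02, -0.06, 0.02 and 0.02.

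**Figure D4:**
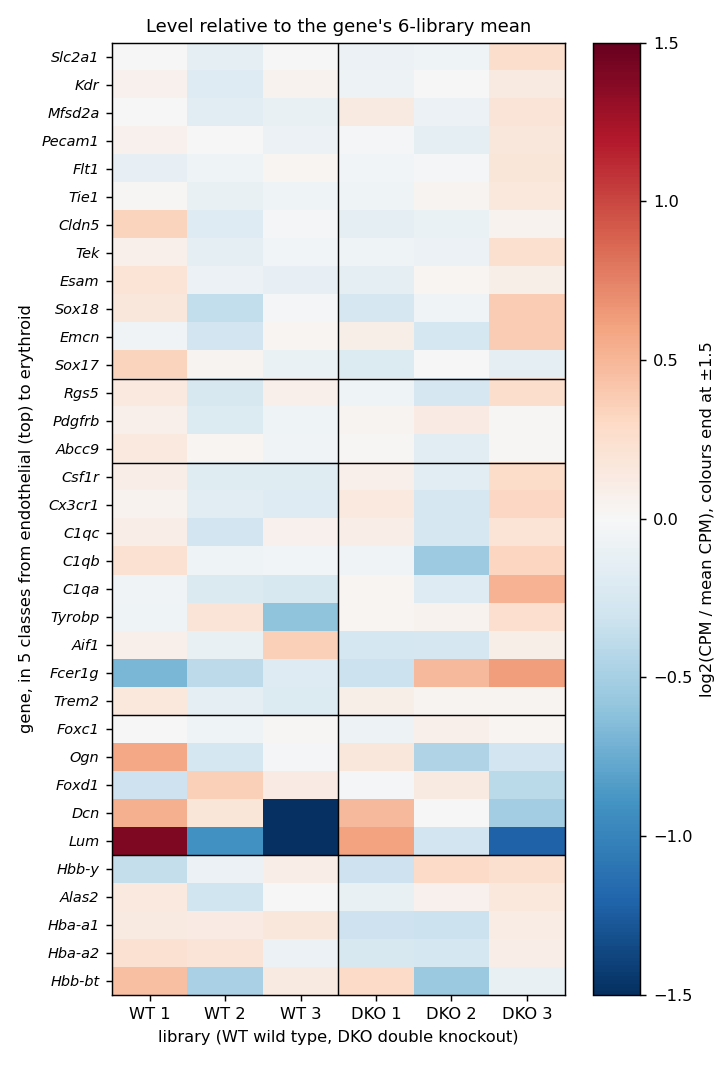
Colour gives log2 of each member's CPM over its mean across the 6 libraries (columns), with rows grouped from endothelial at the top to erythroid at the bottom. Endothelial and microglial rows are mostly red in double knockout replicate 3. Dcn, Lum and Ogn are above their means in wild-type replicate 1 and, by less, in double knockout replicate 1.

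The median within-group standard deviation of log2 CPM was 0.19 over the 29 members averaging 1 CPM or more. It was 0.11 over the 16487 tested genes with such a mean. The members and all tested genes were not matched for level above 1 CPM. The medians by class cover all members, also those averaging under 1 CPM, such as Dcn, Lum and Foxd1. They were 0.15 for endothelial, 0.11 for pericyte, 0.22 for microglial, 0.35 for meningeal and 0.19 for erythroid members.

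Further genes of the same cell types were called at close to the share of all tested genes. Of 98 such genes in the table, 87 were tested and 2 passed, or 2.30% against 2.68% of all tested genes. The endothelial list had 1 of 28 tested genes higher and 0 lower, the pericyte list 1 of 14 higher and 0 lower. The microglial, meningeal and erythroid lists had 0 called of 22, 11 and 12 in edgeR, with 1, 2 and 1 at an unadjusted p under 0.05. The median log2 fold changes of the 5 lists were 0.04, 0.14, 0.17, -0.13 and 0.25. Those of the members, in the same order of classes, were 0.08, -0.01, 0.16, -0.17 and -0.17, so the erythroid medians differed in sign. The summed level of 2 lists did not overlap between the genotypes, but did once the most abundant gene of each was left out. Further pericyte genes summed to 120.0 to 132.1 CPM (wild type) and 152.8 to 180.9 CPM (double knockout), and Notch3, described below, made up most of that sum. Further erythroid genes summed to 164.8 to 169.7 CPM (wild type) and 171.6 to 205.9 CPM (double knockout), with 0 of the 12 tested called in edgeR. The largest part of the erythroid sum was Tfrc, the transferrin receptor that most dividing cells express, followed by the embryonic globin Hba-x and the mitochondrial iron importer Slc25a37. Tfrc was at 83.3 to 102 CPM (wild type) and 96.9 to 103 CPM (double knockout), with a log2 fold change of 0.15 (95% interval -0.02 to 0.33). Hba-x was at 14.6, 15.8 and 25.7 CPM (wild type) and 13.7, 28.3 and 35.9 CPM (double knockout), with a log2 fold change of 0.47 (95% interval -0.29 to 1.23). Slc25a37 was at 22.3, 17.9 and 21.2 CPM (wild type) and 23.5, 22.0 and 25.7 CPM (double knockout), with a log2 fold change of 0.21 (95% interval -0.01 to 0.44). These sums were not tested.

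Fli1, an ETS transcription factor of endothelial and blood cells, was the endothelial gene that rose. It was at 8.84, 8.56 and 8.06 CPM across wild-type replicates 1 to 3, against 22.8, 24.7 and 26.1 CPM across double knockout replicates 1 to 3, and every double knockout library was above every wild-type library. Its log2 fold change of 1.53 with an SE of 0.0845 had an edgeR adjusted p of 4.57e-05. Erg, the closest ETS relative and also endothelial, was at 4.57, 3.41 and 4.16 CPM (wild type) and 4.54, 3.63 and 4.50 CPM (double knockout), with a log2 fold change of 0.06 (95% interval -0.29 to 0.41). The other 27 tested genes of that list, Erg among them, had log2 fold changes from -0.60 to 0.50, with a median of 0.03. Cdh5, the endothelial cadherin, was at 22.9 to 29.9 CPM (wild type) and 25.7 to 30.7 CPM (double knockout). In the pericyte list, Notch3, a Notch receptor of mural cells that neural progenitors also express, rose. It was at 83.9, 87.2 and 96.0 CPM (wild type) and 119, 115 and 141 CPM (double knockout), with a log2 fold change of 0.49 with an SE of 0.0846 and an edgeR adjusted p of 0.0202. Notch3 lost its call without wild-type replicate 1, wild-type replicate 2 or double knockout replicate 1, with adjusted p of up to 0.101 in edgeR, and with Y-linked expression as a covariate, at 0.0743. An opposite-strand gene overlaps its exons, so its counts are uncertain.

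Signals that act on vessels and microglia were a separate list of 20 genes, mostly ligands that neural cells can make. Of these, 5 passed the edgeR test, 2 higher and 3 lower, or 25% against 2.68% of all tested genes. The list was chosen with earlier results of these data known, so its shares are descriptions and not independent evidence. Angpt1, the activating ligand of Tek, fell. It was at 16.8, 15.1 and 13.4 CPM across wild-type replicates 1 to 3, against 9.44, 8.85 and 9.27 CPM across double knockout replicates 1 to 3, without overlap, and differed by -0.72 with an SE of 0.0999 on the log2 scale, with an edgeR adjusted p of 0.00737. Its receptor gene Tek did not pass, as given above. Wnt7a, a ligand for brain vessel growth and barrier formation, fell from 51.9 ± 1.81 to 42.1 ± 0.748 CPM (a log2 difference of -0.30 with an SE of 0.0529), with an edgeR adjusted p of 0.0213. It was at 52.5, 53.4 and 49.9 CPM (wild type) and 41.9, 41.5 and 42.9 CPM (double knockout). Wnt7b, its partner in that role, had a log2 fold change of -0.13 (95% interval -0.28 to 0.02). Cxcl12, a chemokine made by meninges and neural cells, fell from 15.9 ± 2.21 to 10.9 ± 0.531 CPM, a log2 difference of -0.54 with an SE of 0.111, with an edgeR adjusted p of 0.0413. Its libraries were at 18.2, 15.6 and 13.9 CPM (wild type) and 11.1, 10.3 and 11.3 CPM (double knockout).

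Itgb8, the integrin subunit by which neural progenitors activate TGF-beta for vessels, rose. It was at 119, 119 and 119.8 CPM across wild-type replicates 1 to 3, against 159, 157 and 169.9 CPM across double knockout replicates 1 to 3, with a log2 fold change of 0.44 with an SE of 0.0472 and an edgeR adjusted p of 0.00180. Nrp1, a co-receptor for VEGF and semaphorins, rose from 52.6 ± 2.79 to 66.5 ± 3.19 CPM (a log2 difference of 0.34 with an SE of 0.0606), with an edgeR adjusted p of 0.0233. Its libraries were at 53.7, 54.6 and 49.4 CPM (wild type) and 64.8, 64.6 and 70.2 CPM (double knockout). The other 15 did not pass. The genotypes did not overlap for 8 of the 20 genes, the 5 called ones and Cx3cl1, Dll4 and Kitl, against 19.5% of all tested genes. Cx3cl1, the fractalkine ligand of Cx3cr1, was at 14.2, 14.1 and 11.9 CPM (wild type) and 16.6, 19.9 and 14.8 CPM (double knockout), with a log2 fold change of 0.35 (95% interval 0.07 to 0.64) and an edgeR adjusted p of 0.247. Dll4, a Notch ligand of endothelium, and Kitl, the ligand of Kit, had log2 fold changes of 0.20 (95% interval -0.05 to 0.45) and -0.41 (95% interval -0.82 to -0.0034). Vegfa was at 48.5 to 56.1 CPM (wild type) and 47.6 to 60.2 CPM (double knockout), with a log2 fold change of 0.02 (95% interval -0.19 to 0.23), beside its receptor genes Kdr and Flt1 above. Csf1, Il34 and Pdgfb, ligands for Csf1r and Pdgfrb, had log2 fold changes of 0.10, 0.12 and -0.01. Cxcl12 also lost its call with total count scaling, at an edgeR adjusted p of 0.0568. The calls of Angpt1, Itgb8 and Fli1 held in all 14 alternative settings. In edgeR, Wnt7a and Nrp1 lost theirs without any 1 library except double knockout replicate 3, and Cxcl12 without any 1 library except wild-type replicate 3, with adjusted p of up to 0.105, 0.0838 and 0.155. All 3 also lost their calls with Y-linked expression as a covariate, at edgeR adjusted p of 0.0692, 0.0912 and 0.0705. An opposite-strand gene overlaps exons of Angpt1, and a microRNA gene lies within those of Nrp1, so their counts are uncertain.

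Of 12 neural genes kept as a check of the tissue, 2 were called higher and 2 lower in edgeR. Over all tested genes the share called was 1.34% in each direction. The genotypes did not overlap for 3 higher and 6 lower, against 9.3% and 10.2% of all tested genes. These genes too were chosen with earlier results of these data known. Gsx2, a transcription factor of ganglionic eminence progenitors, rose. It was at 21.9, 22.6 and 26.0 CPM (wild type) and 34.3, 32.9 and 42.6 CPM (double knockout), a log2 difference of 0.64 with an SE of 0.111, with an edgeR adjusted p of 0.0204. Nkx2-1, the transcription factor of the medial eminence, rose, at 118, 139 and 127 CPM (wild type) and 179, 169 and 231 CPM (double knockout), a log2 difference of 0.59 with an SE of 0.114, with an edgeR adjusted p of 0.0322. Both lost their calls with the Y-linked covariate, at edgeR adjusted p of 0.0688 and 0.108. They also lost them without wild-type replicate 1 or wild-type replicate 2, and Nkx2-1 without wild-type replicate 3 or double knockout replicate 1, with edgeR adjusted p of up to 0.0969 for Gsx2 and 0.147 for Nkx2-1. Gad1 and Gad2, the enzymes of GABA synthesis, fell. Gad1 was at 125, 115 and 119 CPM (wild type) and 44.2, 40.3 and 44.7 CPM (double knockout), and Gad2 at 319, 326 and 323 CPM (wild type) and 123, 122 and 128 CPM (double knockout). Their log2 differences were -1.47 with an SE of 0.0580 and -1.38 with an SE of 0.0463, with edgeR adjusted p of 6.83e-06 and 4.39e-06 and calls in all 14 alternative settings. The progenitor genes Sox2 and Nes had log2 fold changes of 0.31 (95% interval 0.14 to 0.47) and 0.27 (95% interval 0.04 to 0.51), with edgeR adjusted p of 0.0725 and 0.290. Tubb3, Tbr1 and Neurod6 had log2 fold changes of -0.33, -0.27 and -0.48, with edgeR adjusted p of 0.0521, 0.136 and 0.101. Of the 14 alternative settings, Sox2 was called in 4, Tubb3 in 3 and Nes in 0, while Tbr1 and Neurod6 were not followed there. The part of these neural genes in the values of Notch3 and the signals was not tested.

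**Figure D5:**
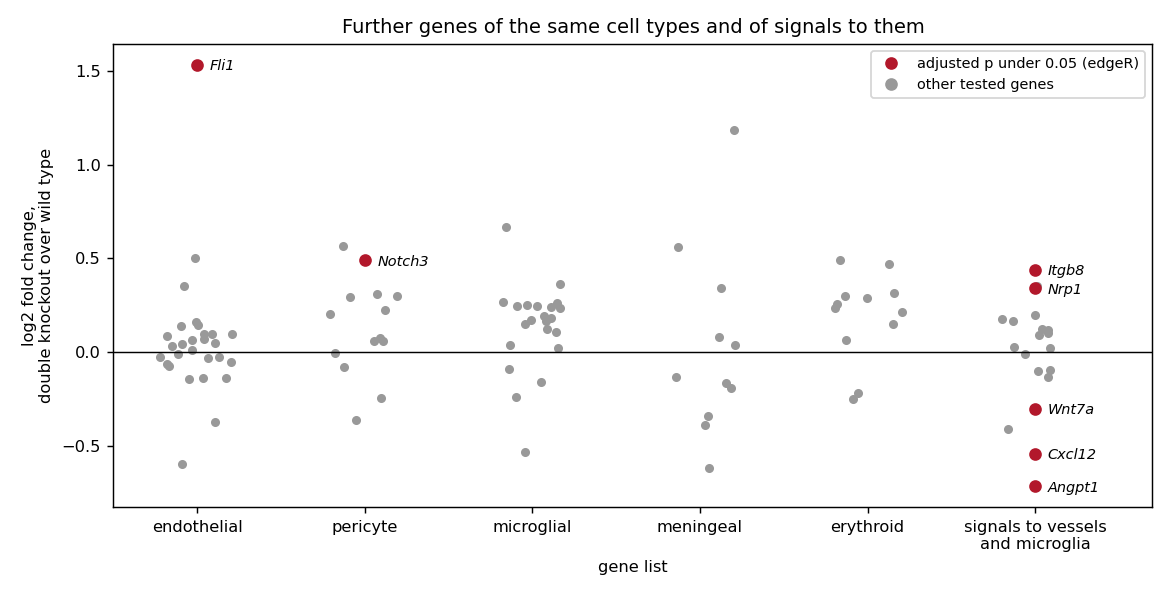
Log2 fold change, double knockout over wild type, of each tested gene in 5 lists of further cell type genes and a list of signals to vessels and microglia; red points, which are named, had an adjusted p under 0.05 in edgeR, and grey points did not. Fli1 stands at 1.53, above the other endothelial genes, and 5 of the 20 signal genes are red.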

How the data were processed

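RNA was measured in 6 libraries, 3 wild type and 3 double knockout, grouped and numbered by the sample titles. The authors deposited raw read counts for each gene and library in a single table, made with featureCounts on GRCm39, per the submitters' processing notes. The aligner, annotation release, and strand and multi-mapping settings were not given in the sources used here. Per the labels' protocols, libraries came from a stranded total RNA kit with ribosomal RNA depletion, which can also capture unspliced transcripts.

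Counts were filtered with filterByExpr (minimum count 10, minimum total 15), scaled by TMM and tested with edgeR 4.0.16 in R 4.3.3, with Benjamini-Hochberg adjustment over all 23628 tested genes and a threshold of 0.05. Fold changes used a prior count of 0.125. SEs came from the fold change and the F statistic, and 95% intervals from the SE and the fit's degrees of freedom. Class sums are sums of CPM and were not tested. Spreads used log2(CPM + 0.1). Alternatives were other scalings, DESeq2 1.42.0, limma-voom (limma 3.58.1), other filters, a replicate block, Y-linked expression as a covariate, and leaving out each library.

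Exon lengths and overlaps came from GENCODE M21 (GRCm38), not the authors' build, matched by gene identifier. Exons of Abcc9, Alas2, Csf1r, Cx3cr1, Slc2a1 and Sox17 overlap an opposite-strand gene there, so their counts are uncertain. The members and the further gene lists were chosen with earlier results of these data known. Values per library were given for the 2 most abundant members and the one with the largest fold change in each class, for members under 10 reads, and for called further genes averaging 1 CPM or more, up to 5 a list. Other genes were named after their values were seen. A further gene of the tissue check is not reported here.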

Additional observations from a re-analysis of the deposited data

How the results depend on the processing

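The number of members called stayed at 0 in all 14 alternative fits, with smallest adjusted p between 0.0543 (Hba-a1, without double knockout replicate 3) and 0.53 in edgeR, DESeq2 or limma-voom. The number called over all tested genes was 634, and 1129 with DESeq2, 358 with the Y-linked covariate and 309 to 749 without each library. The further lists had 11 calls, 4 of them neural check genes, 5 with the covariate and 5 to 12 without each library. Total count scaling gave 60.4% of calls higher in place of 50%, and moved the median of all genes to 0.03. The log2 ratio of the meningeal sum, -0.05, was 0.14 as a mean of log2 CPM and -0.20 without Foxc1, and that of the erythroid sum, 0.10, was -0.13 without Hbb-y. Leaving out each library gave -0.02 to 0.11 for the endothelial, -0.06 to 0.08 for the pericyte, 0.02 to 0.27 for the microglial, -0.09 to 0.03 for the meningeal and 0.02 to 0.24 for the erythroid sum. The cause of these changes was not tested.

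No member's fold change had passed the test, and 15 of the 34, none over 0.20 in absolute log2 fold change, changed sign in at least 1 setting. The values were 0.017 for Esam and 0.020 for Rgs5 with total count scaling, 0.00035 for Esam and 0.0042 for Rgs5 without a filter, 0.0011 for Esam and 0.0040 for Rgs5 at a mean of 1 CPM, -0.0080 for Pecam1, -0.0018 for Kdr, -0.025 for Sox18, -0.00095 for Foxc1 and -0.0052 for Alas2 with the covariate, and 0.70 for Lum in limma-voom. Without each library, the ranges were Pecam1 -0.068 to 0.085, Cldn5 -0.22 to 0.053, Kdr -0.033 to 0.089, Tek -0.037 to 0.13, Esam -0.065 to 0.099, Slc2a1 -0.027 to 0.15, Sox18 -0.084 to 0.24, Rgs5 -0.15 to 0.10, C1qb -0.32 to 0.10, C1qc -0.057 to 0.18, Dcn -0.32 to 0.49, Lum -0.77 to 1.59, Foxc1 -0.0088 to 0.066, Hbb-bt -0.39 to 0.054 and Alas2 -0.035 to 0.18. The other 19 members kept their direction in every setting in which they were tested.

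With the replicate number as a block, 690 genes were called and 0 members, and Lum changed sign to 0.19. Same-numbered libraries had correlations of -0.0586, 0.00162 and 0.0113 in their deviations over all tested genes, where 0 of 6 libraries correlated best with their own number. Over 16482 genes averaging 1 CPM or more, Xist and Y-linked genes left out, they were 0.201, 0.103 and 0.113, and 6 of 6 did. The labels do not say that equal numbers are littermates. The block changed no call of a named gene.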

Other observations

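A few further genes had a single library far from the others. Vwf, the von Willebrand factor gene of endothelium, was at 8.85 CPM in double knockout replicate 2 and at 2.47 to 3.55 CPM in the other libraries. Slco1a4, an organic anion transporter gene of brain vessels and choroid plexus, had 48 reads in wild-type replicate 1, the library with high Ttr, and 0 in the others. Clic6, a choroid plexus chloride channel gene, was at 3.75 CPM in wild-type replicate 1 and 0.218 to 0.647 CPM elsewhere. Kitl, the ligand of the receptor Kit, was at 42.0 CPM in double knockout replicate 3 and 70.9 to 85.4 CPM in the others. These genes were picked after their values were seen.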
